A study of Mus musculus with 18 samples.

Results

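The natriuretic peptide system of the heart was followed in left ventricle of mice through 8 genes. These were the peptide genes Nppa and Nppb, the receptor genes Npr1, Npr2 and Npr3, and Corin, Furin and Mme, whose proteins process or degrade the peptides. They were chosen by name for their place in this system, with earlier results of these data known. They are 8 of the 55450 genes in the count table. All 8 passed the filter on low counts.

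Gαq mice overexpress Gαq, the alpha subunit of the heterotrimeric G protein Gq, in the heart, and wild-type (WT) littermates served as controls. All mice were FVB/N males. From the age of 4 weeks they received a control diet (CD) or chow that contained the SGLT2 inhibitor ertugliflozin (ERTU) at 0.5 mg per g, for 16 weeks, so that hearts were taken at about 20 weeks. Of the 9 WT mice 4 received CD and 5 ERTU, of the 9 Gαq mice 5 received CD and 4 ERTU, and each gave 1 RNA sequencing library. The promoter that drives the transgene, and the number of founder lines, are not given in the sources used here. Libraries are named by the group and by the number in the table, which runs over the whole series.

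Atrial natriuretic peptide (ANP, from Nppa) and B-type natriuretic peptide (BNP, from Nppb) are hormones that myocytes release when they are stretched. Both are made as precursors, which the proteases corin and furin cleave, and both bind NPR-A, a receptor that makes the messenger cGMP and so relaxes vessels, promotes sodium loss and restrains growth of the heart. In the adult heart ANP is mainly an atrial product, and its return to the ventricle is a known sign of hypertrophy and failure.

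Nppb and Nppa lie side by side on chromosome 4 (GRCm38), both on the plus strand. Nppb (ENSMUSG00000029019) spans bases 147985788 to 147987205 and Nppa (ENSMUSG00000041616) spans 148000722 to 148002079, with 13516 bases between them. Sequence before the RefSeq start of each is shown because these were the members that increased most. For Nppa it is the 250 bases before the RefSeq start (chr4:148000472-148000721, GRCm38.p6, plus strand). For Nppb it is a stretch of 30 bases (chr4:147985795-147985824, plus strand) that lies 105 to 76 bases before the RefSeq start. In GENCODE M21 Nppb starts 112 bases farther upstream, so that this stretch is in its first exon. Capitals mark matches, on either strand, to the letters searched, which were GATAA (the core bound by GATA factors), AAGTG (NKX2-5), CATTCC (the M-CAT element of TEAD factors), CANNTG (E-box), TGANTCA (AP-1) and TATAAA (the box bound by TBP), besides the CArG box of serum response factor.
Nppa: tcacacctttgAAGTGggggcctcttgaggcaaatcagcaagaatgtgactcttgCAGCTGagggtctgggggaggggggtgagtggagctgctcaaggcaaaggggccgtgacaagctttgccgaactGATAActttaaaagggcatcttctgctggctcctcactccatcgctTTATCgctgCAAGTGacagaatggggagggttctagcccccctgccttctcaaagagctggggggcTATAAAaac
Nppb: GGAATGCAGCTGATAAatcagaGATAAccc

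The Nppa window held 2 matches to GATAA, at 121 and 75 bases before the start, 2 to AAGTG and 2 to the E-box. It also held 1 to TATAAA, at 9 bases before the start. The E-box at 66 bases before the start overlaps the AAGTG at 65. The Nppb stretch held an M-CAT match, an E-box and 2 matches to GATAA, of which the one at 94 bases before the start shares 1 base with the E-box. The rest of the 250 bases before the Nppb start held 1 further match, to TATAAA at 31 bases before it. The 138 bases of this window that lie upstream of both the RefSeq and the GENCODE start held 0 matches and are not shown. The other 6 members had no match to GATAA in windows of the same length. Among all 32851 RefSeq promoter windows of that length, 22.6% held GATAA, 40.7% AAGTG, 12.6% CATTCC, 66.2% the E-box, 6.75% TGANTCA, 12.4% TATAAA and 1.47% the CArG box. A match is a run of letters and not a measured binding site.

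Total counts ran from 15383566 to 20908363 per library. Gnaq, the gene of the transgene product, stood at 45.5 to 230 CPM (counts scaled to the size of the library) in the 9 WT libraries and at 1641 to 11672 CPM in the 9 Gαq libraries. Every library therefore matched the genotype of its label, while the diet of the label was not checked in this way. The summed level of 10 cardiomyocyte markers was 36147 to 51905 CPM in WT and 39833 to 51087 CPM in Gαq. Atrial myocytes express most of these too, but Myl2, the ventricular light chain gene, was at 5100.1 to 9199.7 CPM in WT and 6621 to 9473 CPM in Gαq. The labels give separate samples, and the methods say that 4 to 5 hearts were taken per group. In bulk tissue, fewer cells of a type and less RNA per cell cannot be told apart.

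With genotype compared across both diets, 4 of the 8 members passed the test (adjusted p under 0.05), where 19.6% of the 16270 genes tested did. Both peptide genes increased, against 9.72% of all genes. Mme and Furin decreased, against 9.92% of all genes. The 3 receptor genes and Corin did not pass. In Nppa, Nppb and Mme the 9 Gαq libraries did not overlap the 9 WT libraries in CPM, which held for 3.56% of all genes. Since the members were chosen with earlier results known, the shares of all genes are a description and not a test. The median fitted change of the 8 members was -0.11 on the log2 scale, beside 0.00377 over all genes.

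Nppa was the member with the largest change. It was 537, 365, 481 and 259 CPM in WT CD and 726, 323, 716, 584 and 179 CPM in WT ERTU. In Gαq CD it was 19086, 10636, 11664, 13526 and 14196 CPM, and in Gαq ERTU 21091, 14906, 14218 and 14133 CPM. The lowest Gαq library was 14.7-fold above the highest WT library. The fitted increase by genotype was 5.03 ± 0.26 on the log2 scale (SE), or 32.7-fold (95% CI 22.6 to 47.3), with an adjusted p of 4.52e-11 by the quasi-likelihood test of edgeR with Benjamini-Hochberg adjustment. By size, Nppa ranked 4 of the 1582 genes that increased.

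The increase in Nppa was of like size on each diet, 5.07 ± 0.39 on CD and 4.99 ± 0.36 on ERTU (log2, SE). The transcript took 0.0172% to 0.0711% of all counts in WT hearts and 1.14% to 2.10% in Gαq hearts. An antisense gene that overlaps Nppa, Gm13054 (ENSMUSG00000086806), had 5 to 20 counts in WT and 194 to 287 counts in Gαq libraries. These were 0.0842% to 0.288% of the Nppa count in WT and 0.0829% to 0.114% in Gαq. The methods state counting on the same strand, but the kit named there does not show whether strand was kept, so that reads of this pair may be mixed.

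Nppb encodes the BNP precursor. It was 119, 224, 275 and 177 CPM in WT CD and 388, 284, 228, 212 and 263 CPM in WT ERTU. In Gαq CD it was 956, 954, 1520, 827 and 857 CPM, and in Gαq ERTU 908, 1071, 706 and 1193 CPM. Every Gαq library was above every WT library, with the lowest Gαq value 1.82-fold above the highest WT value. Nppb increased by 2.09 ± 0.18 (log2, SE), or 4.26-fold (95% CI 3.29 to 5.51, adjusted p = 6.57e-08, edgeR), and ranked 73 of the 1582 increases.

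On CD the increase in Nppb was 2.36 ± 0.25 and on ERTU it was 1.82 ± 0.23 (log2, SE). The difference between these, which is the interaction of diet with genotype, was -0.55 ± 0.33 and did not pass the test (edgeR, adjusted p = 1.00).

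**Figure D1:**
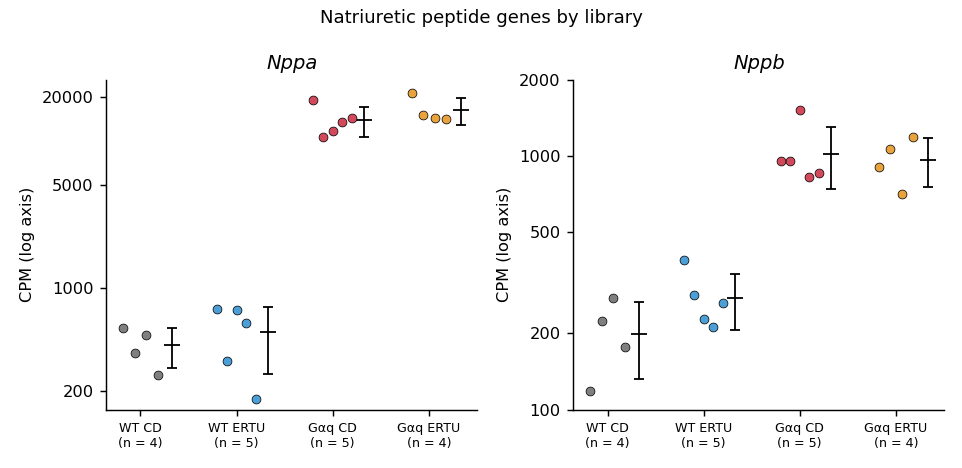
Nppa (left) and Nppb (right) in CPM on log axes, 1 point per library, in WT hearts on CD (n = 4) and on ERTU (n = 5) and in Gαq hearts on CD (n = 5) and on ERTU (n = 4), with the group mean ± SD beside the points. All 9 Gαq libraries lie above all 9 WT libraries in both genes, with a lowest Gαq value of 10636 CPM for Nppa and 706 CPM for Nppb.

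Since both peptides share a receptor, their proportion was compared per length (RPKM, which is CPM divided by the exon length in kilobases). The ratio of Nppa to Nppb had a median of 1.52 in WT CD (range 1.32 to 4.09) and 1.69 in WT ERTU (0.613 to 2.83). In Gαq CD the median was 14.8 (6.93 to 18.02) and in Gαq ERTU 15.4 (10.7 to 20.98). No Gαq heart had a ratio as low as the highest WT heart. The ratios within a genotype overlapped between the diets.

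Neighbours of the peptide genes on chromosome 4 were measured because the pair is so close. None of the neighbours named here passed the genotype test by edgeR, DESeq2 or voom. On the Nppb side the changes were -0.10 for Mfn2, a mitochondrial fusion gene, -0.03 for Plod1 and -0.09 for 2510039O18Rik (log2). On the Nppa side they were 0.16 for Clcn6 (adjusted p = 0.0863, edgeR, and 0.0370 without the libraries highest in atrial markers, described next) and -0.14 for Agtrap.

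The ventricle can carry atrial tissue, in which Nppa is abundant, so the peptide genes were set beside 5 atrial markers. The summed level of these markers was 2.37 to 232 CPM in WT CD, 2.51 to 256 in WT ERTU, 5.10 to 746 in Gαq CD and 25.6 to 508 in Gαq ERTU. Bmp10 was under 0.5 CPM in every library, and the smallest adjusted p of the other 4 markers by genotype was 0.0868 (Mybphl, log2 change 2.10, edgeR). The median genotype change of these 4 markers was 1.65 (log2). The part of atrial tissue in the genotype changes of the peptide genes was not tested. Gαq CD library 6, in which the atrial light chain gene Myl7 had 0 CPM, had the highest Nppa of its group at 19086 CPM. Gαq CD library 7, with 0.532 CPM of Myl7, had the lowest at 10636 CPM, and Gαq CD library 8, with the highest markers, had 11664 CPM. In a fit without the library of each group that was highest in these markers, and in 5 other alternatives, the genotype change of Nppa stayed between 5.03 and 5.06 and that of Nppb between 1.87 and 2.10 (log2).

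**Figure D2:**
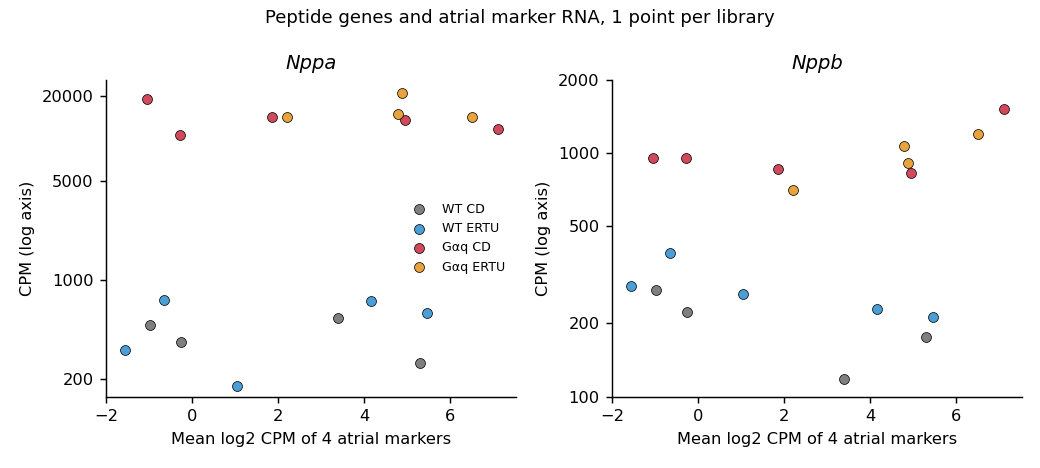
Nppa (left) and Nppb (right) in CPM on log axes against the mean log2 CPM of the atrial markers Myl7, Myl4, Sln and Mybphl, 1 point per library and 1 colour per group. Gαq libraries lie above all WT libraries at low as well as at high atrial markers, and Gαq CD library 8 is highest on both axes of the Nppb panel at 1520 CPM.

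Within the 9 Gαq hearts, 5 relations among the peptide genes, Gnaq and the atrial markers were computed on log2 CPM with exact permutation tests, 2-sided. The WT and Gαq hearts form separate clusters and were not pooled, and the groups of 4 and 5 are too small for values within a diet. The Gαq hearts on CD and on ERTU were therefore pooled with no term for diet. Their mean Gnaq was 7473 CPM on CD and 3216 CPM on ERTU, and their mean Nppa 13821 and 16087 CPM. The part of diet in these relations was not tested. Nppa and Nppb were not correlated past the threshold (Pearson r = -0.27, exact p = 0.484, Spearman rho = -0.17, exact p = 0.678). Without the 2 libraries farthest from the median of Nppb, Gαq CD 8 and Gαq ERTU 18, r was -0.06. Against Gnaq, r was -0.43 for Nppa (exact p = 0.252, rho = -0.55, exact p = 0.133, r = -0.66 without the 2 libraries farthest from the median of Gnaq) and 0.33 for Nppb (exact p = 0.403, rho = 0.27, exact p = 0.493, r = -0.08 without the same 2). The hearts with the most Gnaq RNA were therefore not shown to have the most peptide RNA.

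Against the atrial markers, r was -0.09 for Nppa (exact p = 0.831, rho = -0.27, exact p = 0.493, r = -0.19 without Gαq CD 6 and Gαq CD 7, the farthest from the median of the markers). For Nppb it was 0.54 (exact p = 0.134, rho = 0.37, exact p = 0.336), and 0.84 without the same 2 libraries. Adjusted over the 5 relations, the exact p was 0.605 or more for r and 0.617 or more for rho. The part of atrial tissue in the Nppb values of single Gαq hearts was not tested further.

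None of the 3 receptor genes passed the genotype test by edgeR, DESeq2 or voom, and Npr2 alone had an unadjusted p under 0.05 (0.0281, edgeR). Npr1 (ENSMUSG00000027931, chromosome 3, 90450591 to 90465866) encodes NPR-A, the cGMP-forming receptor of ANP and BNP. It was 40.5 to 66.1 CPM in the 9 WT libraries (median 45.5) and 38.5 to 58.5 CPM in the 9 Gαq libraries (median 47.2), and the genotype change was -0.06 ± 0.10 (log2, SE, 95% CI -0.27 to 0.16). The interval therefore holds changes of up to 1.21-fold lower and 1.12-fold higher. Npr2 (ENSMUSG00000028469, chromosome 4, 43631935 to 43651244) encodes NPR-B, the receptor of C-type natriuretic peptide. It was 69.3 to 91.7 CPM in WT (median 78.9) and 60.3 to 82.5 CPM in Gαq (median 69.6), with a genotype change of -0.17 ± 0.07 (adjusted p = 0.105, edgeR).

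Npr3 (ENSMUSG00000022206, chromosome 15, 11839896 to 11907287) encodes NPR-C, which binds and clears the peptides and makes no cGMP. It varied most among the receptors. It was 44.1, 39.6, 50.0 and 67.3 CPM in WT CD and 39.0, 41.7, 78.9, 77.1 and 40.8 CPM in WT ERTU. In Gαq CD it was 42.9, 51.1, 54.3, 29.9 and 85.6 CPM, and in Gαq ERTU 53.0, 48.3, 129 and 66.3 CPM. The groups overlapped, and 1 library, Gαq ERTU 18, had the highest value of all. The genotype change was 0.25 ± 0.22 (log2, SE, adjusted p = 0.474, edgeR).

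The proportion of clearance receptor to signalling receptor, Npr3 to Npr1 per length, had medians of 0.536 in WT CD, 0.464 in WT ERTU, 0.567 in Gαq CD and 0.574 in Gαq ERTU. The ranges of the 4 groups overlapped, and single hearts ran from 0.360 to 1.29. The endogenous ligand of NPR-B, Nppc, and Ostn, whose product also binds NPR-C, were not tested because their counts were too low, at no more than 0.366 and 0.276 CPM in any library.

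Both processing genes that passed the test decreased. Mme (ENSMUSG00000027820, chromosome 3, 63241537 to 63386030) encodes neprilysin, the endopeptidase that degrades natriuretic peptides and the target of sacubitril. It was 48.0, 33.4, 36.1 and 36.3 CPM in WT CD and 34.3, 32.8, 30.7, 35.2 and 38.0 CPM in WT ERTU. In Gαq CD it was 10.8, 11.5, 16.8, 14.96 and 14.2 CPM, and in Gαq ERTU 13.8, 13.8, 17.7 and 17.8 CPM. All WT hearts were higher than all Gαq hearts, with the lowest WT value 1.73-fold above the highest Gαq value.

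Mme decreased by 1.30 ± 0.10 on the log2 scale (SE), or 2.47-fold (95% CI 2.13 to 2.86, adjusted p = 2.56e-08, edgeR), and ranked 114 of the 1614 decreases. On CD it decreased by 1.49 ± 0.14 and on ERTU by 1.12 ± 0.14 (log2, SE). The change did not hinge on 1 heart, since it lay between -1.35 and -1.23 in the 18 fits that each left out 1 library.

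Furin (ENSMUSG00000030530, chromosome 7, 80388585 to 80405436) is a convertase that cleaves many precursors, proBNP among them. It was 130, 76.3, 83.6 and 99.7 CPM in WT CD and 185, 107, 82.1, 110 and 98.9 CPM in WT ERTU. In Gαq CD it was 83.7, 70.0, 65.2, 80.5 and 78.7 CPM, and in Gαq ERTU 75.9, 73.9, 81.9 and 92.3 CPM. The genotypes overlapped. Furin decreased by 0.44 ± 0.13 (log2, SE), or 1.36-fold (adjusted p = 0.0179, edgeR), but the adjusted p was 0.0522 without WT CD library 1 and 0.0581 without the libraries highest in atrial markers.

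Corin (ENSMUSG00000005220, chromosome 5, 72300025 to 72504473) encodes the membrane protease that converts proANP to ANP at the myocyte surface. It was 340, 334, 240 and 303 CPM in WT CD and 400, 346, 333, 332 and 321 CPM in WT ERTU. In Gαq CD it was 318, 188, 194, 212 and 314 CPM, and in Gαq ERTU 274, 324, 315 and 280 CPM. Gαq CD libraries 7, 8 and 9 had lower Corin than any WT heart, while libraries 6 and 10 and all Gαq ERTU hearts were within the WT range. Those 3 libraries also had the most Gnaq of all hearts, at 9701, 8045 and 11672 CPM, against 6304 and 1641 CPM in libraries 6 and 10. In Gαq ERTU, in the order given for Corin, Gnaq was 2392, 5207, 2236 and 3031 CPM. The library with the most Gnaq there, 17, also had the highest Corin of that group. The pattern in Gαq CD was noticed after the values were seen and was not tested.

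Corin did not pass the genotype test (-0.26 ± 0.11, log2, SE, adjusted p = 0.0850, edgeR). It passed without WT CD library 4 (adjusted p = 0.0493), without Gαq CD library 6 (0.0335) or without Gαq CD library 10 (0.0388).

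**Figure D3:**
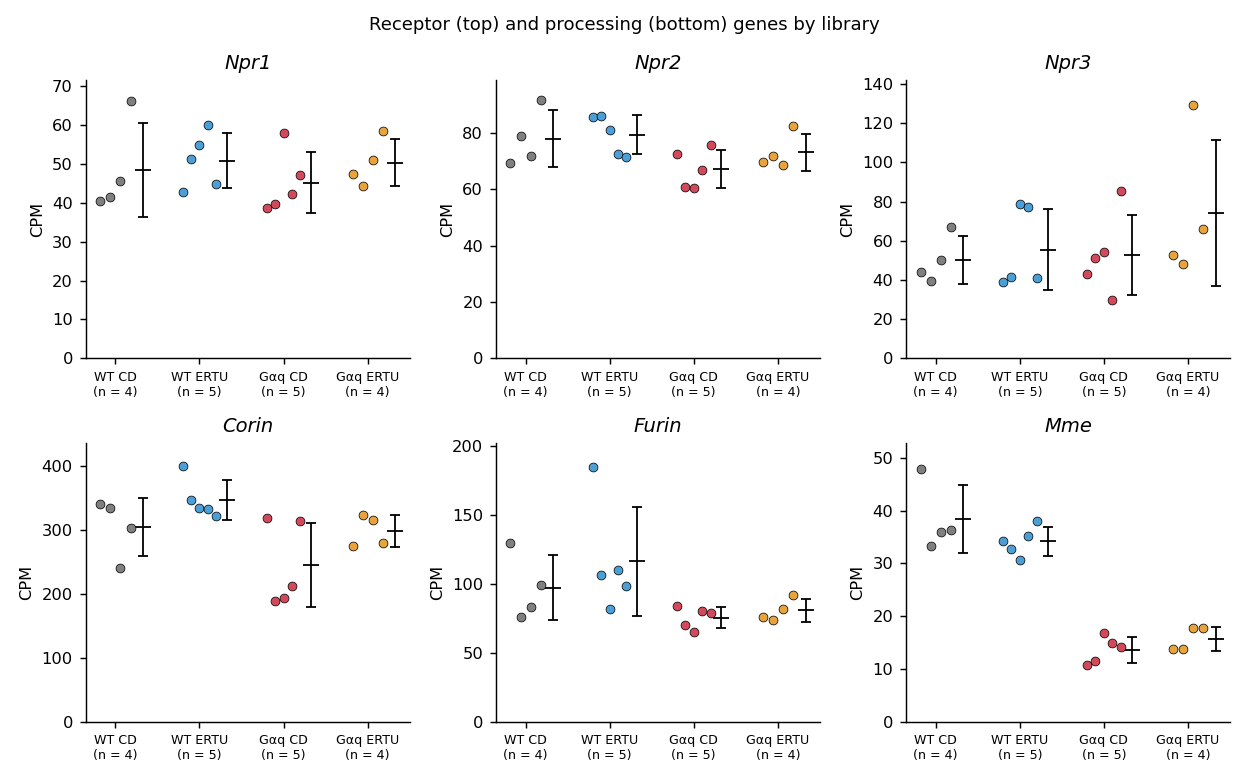
The receptor genes (top) and the processing genes (bottom) in CPM on axes from 0, 1 point per library, with the group mean ± SD beside the points, in WT hearts on CD (n = 4) and on ERTU (n = 5) and in Gαq hearts on CD (n = 5) and on ERTU (n = 4). Mme separates the genotypes, with 10.8 to 17.8 CPM in Gαq and 30.7 to 48.0 CPM in WT, while the other 5 genes overlap.

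RNA of some markers of other cell types moved with genotype, and these values are set beside the receptor and processing genes. Of all genes 19.6% passed the genotype test. Of 6 fibroblast markers, 3 increased (Lum by 0.97, Dcn by 0.62 and Pdgfra by 0.38, log2), and the summed level was 2736 to 5588 CPM in WT and 3782 to 6109 CPM in Gαq. Of 6 endothelial markers, Cdh5 and Tie1 decreased, with sums of 1143 to 1500 CPM in WT and 1025 to 1237 CPM in Gαq. Of 8 smooth muscle and pericyte markers, Rgs5 and Abcc9 decreased, with sums of 1805 to 2129 CPM in WT and 1369 to 1993 CPM in Gαq. Of 4 epicardial markers, Msln (2.53) and Upk3b (2.31) increased, with sums of 5.31 to 16.5 CPM in WT and 7.01 to 41.4 CPM in Gαq. Msln and Upk3b were highest in Gαq CD library 8, at 11.7 and 20.5 CPM, and at 0 CPM in Gαq CD library 6. Of 4 endocardial markers, Plvap increased (0.72), with sums of 145 to 474 CPM in WT and 218 to 666 CPM in Gαq. None of 3 fat markers, 5 macrophage markers or 2 lymphocyte markers tested passed, with medians of 0.99, 0.22 and 0.69. Of the 10 cardiomyocyte markers, Ryr2, Tnni3 and Myl3 decreased and Mybpc3 increased. The part of these cell types in the member genes was not tested.

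Compared per length, the order of the 8 genes was nearly the same in every group. Nppa was highest, at 474 ± 143 RPKM (SD, n = 4) in WT CD and 15979 ± 3779 RPKM (SD, n = 5) in Gαq CD, followed by Nppb, at 254 ± 85.7 RPKM (SD, n = 4) and 1310 ± 364 RPKM (SD, n = 5). Corin was next, at 56.3 ± 8.50 RPKM (SD, n = 4) and 45.4 ± 12.1 RPKM (SD, n = 5), so that it was well above Furin, at 10.6 ± 2.58 RPKM (SD, n = 4) and 8.24 ± 0.845 RPKM (SD, n = 5). Npr2, Npr1 and Npr3 had mean levels of 5.35 to 16.99 RPKM in the 4 groups, in that order. Mme was lowest, at 3.33 ± 0.563 RPKM (SD, n = 4) in WT CD and 1.18 ± 0.215 RPKM (SD, n = 5) in Gαq CD.

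Neighbours in that order were not always distinct. The libraries of Nppa and Nppb overlapped in both WT groups and did not overlap in the Gαq groups. Furin and Npr1 overlapped in all 4 groups, and in the Gαq groups their order changed with the length used. Furin overlapped Npr2 in WT ERTU and Npr3 in both Gαq groups. Npr1 also overlapped Npr3 in both Gαq groups, so the order of these receptor genes there is one of means.

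Within each diet, 3 of the 8 members passed the genotype test, and they were Nppa, Nppb and Mme in both cases. Of all genes 8.1% passed on CD and 8.17% on ERTU. These same genes were the ones without overlap between Gαq and WT libraries, as were 9.29% of all genes on CD and 10.9% on ERTU. On ERTU, Furin had a change of -0.52 ± 0.19 (log2, SE, adjusted p = 0.0918, edgeR), which passed only without WT ERTU library 13 (0.0430). Gαq CD was compared with WT CD and Gαq ERTU with WT ERTU, so the means compared share no library. The filter, the scaling and the estimate of the spread came from all 18 libraries, so the tests are not independent.

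ERTU was compared with CD to ask whether the drug altered the peptide system. In the Gαq groups compared, the transcript of the transgene product, Gnaq, was at 7473 ± 3818 CPM (SD, n = 5) on CD and 3216 ± 1371 CPM (SD, n = 4) on ERTU. The change was -1.22 ± 0.52 (log2, SE) and did not pass (edgeR, adjusted p = 0.653), the ranges overlapped, and its part in the comparison of ERTU in Gαq hearts was not tested. The summed atrial markers had a median of 20.5 CPM in Gαq CD and 152 CPM in Gαq ERTU, and the fat markers 7.78 and 16.2 CPM. In WT CD and WT ERTU the medians were 35.5 and 9.86 CPM for atrial and 8.43 and 8.99 CPM for fat markers. The ranges overlapped, none of these markers passed a test of ERTU by edgeR, and their part in the ERTU comparisons was not tested. No member passed in any test of ERTU against CD by edgeR, DESeq2 or limma voom. Across both genotypes 0 of 8 members passed, and 0% of all genes did by edgeR (1252 genes at an unadjusted p under 0.05, 2 genes past the threshold by DESeq2 and 0 by voom). In WT 0 of 8 members and 0% of all genes passed (365 genes unadjusted, 0 by DESeq2 and 0 by voom). In Gαq hearts 0 of 8 members passed beside 0.00615% of all genes, which is 1 gene (1240 genes unadjusted, 4 by DESeq2 and 1 by voom). Among the members, Corin by diet was the only one at an unadjusted p under 0.05 in these tests, with a change of 0.23 ± 0.11 (log2, SE, edgeR, adjusted p = 0.640).

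The 95% intervals give, for each gene taken alone, the changes with ERTU that these libraries do not exclude. They carry no adjustment over genes and are not a limit of what the test could detect. In Gαq hearts the change with ERTU was 0.22 for Nppa (95% CI -0.43 to 0.87, log2) and -0.08 for Nppb (-0.56 to 0.40), so that Nppa may have been as low as 0.740-fold or as high as 1.83-fold of its level on CD. The intervals for Npr1 (-0.16 to 0.47), Npr2 (-0.09 to 0.33), Corin (-0.04 to 0.60), Furin (-0.29 to 0.49) and Mme (-0.08 to 0.49) were narrower than that of Npr3 (-0.15 to 1.13). In WT hearts the change was 0.30 for Nppa (-0.36 to 0.96), 0.47 for Nppb (-0.02 to 0.96) and -0.17 for Mme (-0.45 to 0.11).

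By diet across both genotypes, all 8 fitted changes were above 0, with a median of 0.19 (log2), beside 49.5% of all genes above 0 and a median of -0.00172. The 8 genes are measured in the same hearts and are not independent. For Mme the change was 0.0122 and turned below 0 in 5 of the 18 fits that left out 1 library.

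No interaction passed in the 8 members by edgeR, DESeq2 or voom, nor in any of the 16270 genes by edgeR (313 genes, or 1.92%, at an unadjusted p under 0.05, and 0 genes past the threshold by DESeq2 or voom). Of the members, Mme had the smallest unadjusted p of these tests, 0.0633 by edgeR, with a difference of 0.38 ± 0.19 (log2, SE, adjusted p = 1.00). Its level in WT ERTU hearts was 34.2 ± 2.72 CPM (SD, n = 5) beside 38.4 ± 6.50 CPM (SD, n = 4) on CD, and in Gαq ERTU hearts 15.8 ± 2.28 CPM (SD, n = 4) beside 13.6 ± 2.48 CPM (SD, n = 5) on CD.

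**Figure D4:**
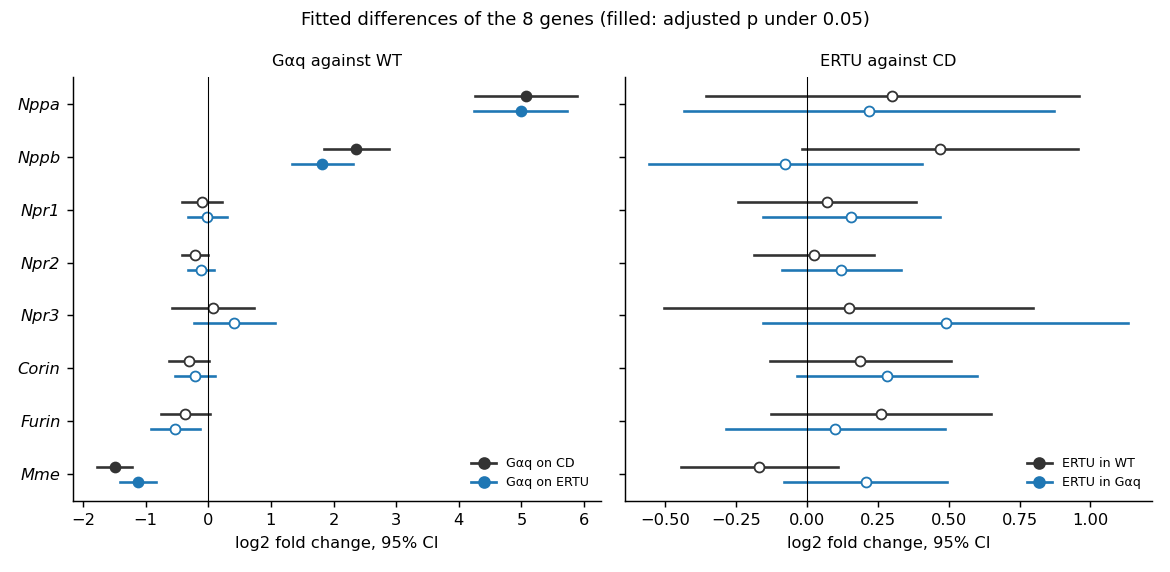
Fitted log2 fold changes of the 8 genes with 95% confidence intervals, for Gαq against WT on each diet (left) and for ERTU against CD in each genotype (right); filled points have an adjusted p under 0.05. Nppa, Nppb and Mme are filled on the left (Nppa at 5.07 on CD and 4.99 on ERTU), and no point is filled on the right, where the horizontal axis is narrower.

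Other genes around the peptides were examined, namely 5 related proteases and 23 genes of cGMP signalling, the pathway through which the peptides act. Of the cGMP genes 6 passed the genotype test and of the proteases 2, beside 19.6% of all genes. These lists too were chosen with earlier results of these data known. Both proteases decreased. Pcsk6, a convertase of the furin family, was 88.9 to 142 CPM in WT and 73.8 to 96.1 CPM in Gαq, and decreased by 0.45 ± 0.08 (log2, SE, adjusted p = 0.000589, edgeR). Pcsk7 decreased by 0.18 ± 0.06 (adjusted p = 0.0225), a call lost without the filter on low counts (0.114) and without the libraries highest in atrial markers (0.0723). Neither Ide, insulin-degrading enzyme, which also cleaves ANP (-0.21 ± 0.09), nor Dpp4, a peptidase that trims BNP (0.38 ± 0.20), passed.

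Nitric oxide drives the other source of cGMP. Of its 5 genes only Nos1, the neuronal nitric oxide synthase, passed, with an increase of 2.46 ± 0.55 (log2, SE, adjusted p = 0.00274, edgeR). It was scarce, at 0.0549 to 0.461 CPM in WT, 0.328 to 4.36 CPM in Gαq CD and 0.183 to 1.39 CPM in Gαq ERTU, so that the genotypes overlapped. The subunits of soluble guanylate cyclase were at -0.07 ± 0.08 (Gucy1a1), -0.06 ± 0.08 (Gucy1b1) and -0.32 ± 0.25 (Gucy1a2) and did not pass.

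Of 6 genes for cGMP kinases and their substrates, Prkg1 increased and Rgs2 decreased. Prkg1 encodes cGMP-dependent protein kinase I, was 18.5 to 25.0 CPM in WT and 20.8 to 42.7 CPM in Gαq, and rose by 0.65 ± 0.11 (log2, SE, adjusted p = 0.000214, edgeR). Rgs2 encodes a regulator that switches off Gq signalling and is a substrate of this kinase. It was 25.1 to 90.3 CPM in WT and 15.4 to 44.7 CPM in Gαq, and fell by 0.93 ± 0.22 (adjusted p = 0.00374). Prkg2 (-0.79 ± 0.29) and Mrvi1, a target of the kinase in smooth muscle (-0.12 ± 0.11), did not pass.

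Phosphodiesterases degrade cyclic nucleotides, and of 12 genes for these enzymes and for exporters 1 increased and 2 decreased. Pde1c, a calcium-activated enzyme, was 35.2 to 65.8 CPM in WT and 69.4 to 118 CPM in Gαq without overlap, and rose by 0.83 ± 0.13 (log2, SE, adjusted p = 0.000111, edgeR). Pde11a was 6.91 to 13.4 CPM in WT, 1.07 to 3.51 CPM in Gαq CD and 3.40 to 7.04 CPM in Gαq ERTU, and fell by 1.32 ± 0.25 (adjusted p = 0.000544). Pde3a, which degrades cAMP and is inhibited by cGMP, fell by 0.41 ± 0.11 (adjusted p = 0.00910), a call lost without the libraries highest in atrial markers (0.0524). Pde5a, the target of sildenafil, named after its values were seen, was at -0.16 ± 0.13 and the exporter Abcc4 at -0.24 ± 0.09, and neither passed.

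**Figure D5:**
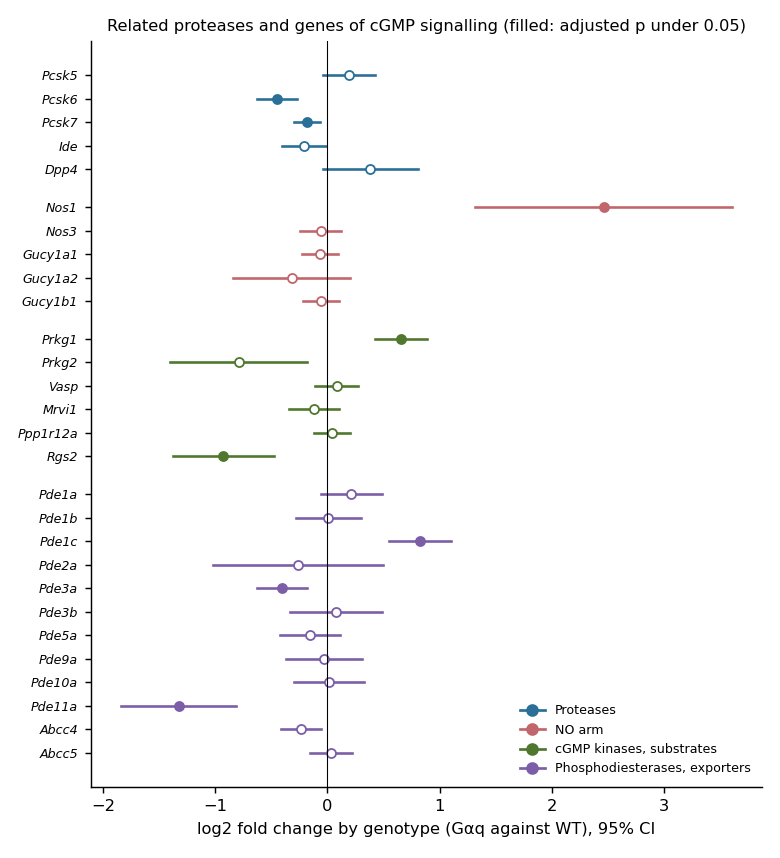
Fitted log2 fold changes by genotype with 95% confidence intervals for 5 related proteases and 23 genes of cGMP signalling, coloured by role, with filled points at an adjusted p under 0.05. Filled points to the right of 0 are Nos1 (2.46), Pde1c (0.83) and Prkg1 (0.65), and those to the left are Pde11a, Rgs2, Pcsk6, Pde3a and Pcsk7.

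Factors known to act on the peptide genes were listed too. Of these 14 genes 2 passed the genotype test, both as decreases, beside 19.6% of all genes in either direction. Gata6 fell by 0.33 ± 0.06 (log2, SE, adjusted p = 0.000692, edgeR) and Hand2 by 0.55 ± 0.12 (adjusted p = 0.00171). Mef2a (-0.20 ± 0.09) and Tead1 (-0.30 ± 0.14) did not pass, and neither did Gata4 (-0.09 ± 0.08) and Nkx2-5 (-0.14 ± 0.08), which were added after their values were seen. No gene of these 5 lists passed a test of ERTU by edgeR, in either genotype or across both. The smallest unadjusted p in Gαq hearts was that of Pde11a, 0.000669 by edgeR, for a change of 1.20 ± 0.30 (adjusted p = 0.653), and 3 of the 4 Gαq ERTU hearts were above the highest Gαq CD heart.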

How the data were processed

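RNA of left ventricle was sequenced in 18 mice, as poly(A)-selected paired-end libraries. The authors aligned reads to mm10 with STAR 2.6.0c and deposited raw counts of uniquely aligned proper pairs per Ensembl gene, nuclear-encoded genes only, made with featureCounts (Subread 1.6.2, per the methods and the submitters' processing notes). They also deposited log2-like values from a variance-stabilizing transformation, used here only to repeat the correlations. Symbols and coordinates came from GENCODE M21, which 55190 (99.5%) of the gene IDs matched, and upstream sequences from RefSeq (GRCm38.p6), where all 8 genes had a window.

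Counts were tested in R 4.3.3 with the quasi-likelihood F test of edgeR 4.0.16, after filterByExpr on the 4 groups and TMM scaling, on 16270 genes. Genotype and diet were fitted as 2 additive factors, and the other comparisons as contrasts among the 4 group means. The Benjamini-Hochberg adjustment ran over the whole table, and an adjusted p under 0.05 counted as passing. CPM used TMM scaling, log2 CPM a prior count of 2, and RPKM the union of exons. Total counts of 15383566 to 20908363 per library set the precision, and intervals come from the spread between libraries.

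Results were repeated with size factors by the median of ratios, without a filter, with a filter at a mean CPM of 1, with DESeq2 1.42.0, with limma 3.58.1 voom and quality weights, with only the groups compared, with the longest transcript as length, and without each library in turn. Leaving out the library of each group highest in atrial markers was added after the data were seen. The test was checked on simulated data with 200 changed genes. The columns carry a group and a series-wide number, so libraries were assigned to groups and not to label replicate numbers. The members and the gene lists were chosen with earlier results of these data known. Genes named are the members, up to 4 of each other list with the smallest adjusted p by genotype, the 3 tested genes on each side of the peptide genes, the 3 most alike in deviations from the group means among genes with a mean log2 CPM of at least 1, and Gnaq. Markers are named where they move with a result. Some genes that this rule names are not reported here.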

Additional observations from a re-analysis of the deposited data

Results flagged for a closer look

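A library was compared with the others of its group in each of 32 combinations of member and group, by its gap to the nearest value as a share of the group's range. Chance alone would mark about 1 in 20, or 1.6, and 3 were marked. The combinations share the 18 libraries and the gaps were taken on CPM and not on the log scale, so this rate may not hold here. Gαq ERTU library 16 had the highest Nppa of its group, 21091 CPM beside 14133 to 14906 CPM (gap share 0.889). Gαq CD library 8 had the highest Nppb, 1520 CPM beside 827 to 956 CPM (0.814), and it also had the highest atrial markers of all libraries. Without it, the change of Nppb with ERTU in Gαq hearts was 0.11 in place of -0.08 (log2, edgeR, adjusted p = 0.909), and neither passed the test. WT ERTU library 11 had the highest Furin, 185 CPM beside 82.1 to 110 CPM (0.729).

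For Mme the fitted change with ERTU was below 0 in WT hearts (-0.17, 95% CI -0.45 to 0.11, log2) and above 0 in Gαq hearts (0.21, -0.08 to 0.49), and neither passed the test (edgeR, adjusted p = 1.00 and 0.68). Every WT ERTU heart was below the mean of WT CD and every Gαq ERTU heart was above the mean of Gαq CD. The WT side rested on WT CD library 1 (48.0 CPM). Without it the change in WT was -0.0436, and WT ERTU library 15 (38.0 CPM) was above all of the other 3 WT CD libraries (33.4 to 36.3 CPM). The interaction was 0.38 ± 0.19 (log2, SE) and did not pass the test, with an unadjusted p of 0.0633 and an adjusted p of 1.00 by edgeR.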

How the results depend on the processing

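The number of members called moved by less than 1.5 times under each alternative. Leaving out 1 library gave 3 to 5 by genotype, 3 on CD, 3 to 4 on ERTU and 0 to 0 in the 4 comparisons that involve diet. Over all genes, Gαq against WT on ERTU called 1330 genes and 2755 with voom. No paired analysis was possible because library numbers run on through the series and no number occurs in more than 1 group. Nppa, Nppb and Mme passed by genotype under every alternative run, and the calls of Furin, Corin, Pcsk7 and Pde3a that changed are given above. Ide passed with voom (adjusted p = 0.0456), and Prkg2, Abcc4 and Mef2a passed in 2, 3 and 1 of the 18 fits without 1 library.

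The signs that turned were all of changes that did not pass and whose reported values were -0.16 to 0.15 (log2), except the interaction of Npr3 (0.34) and Nppa with ERTU in WT (0.30). With voom they were Npr1 on ERTU (0.0265), Nppa with ERTU in WT (-0.00851), and the interactions of Nppa (0.140) and Furin (0.0316). Without the libraries highest in atrial markers they were Furin with ERTU in Gαq (-0.0144) and the interactions of Nppa (0.147), Npr1 (-0.00648) and Npr2 (-0.121). Leaving out 1 library gave by genotype -0.105 to 0.0305 for Npr1 and -0.0852 to 0.0251 for Plod1. By diet it gave -0.0318 to 0.0878 for Mme. For Gαq against WT on CD it gave -0.206 to 0.0853 for Npr1 and -0.170 to 0.246 for Npr3, and on ERTU -0.0960 to 0.0530 for Npr1. For ERTU in WT it gave -0.00589 to 0.257 for Npr1, -0.0273 to 0.112 for Npr2 and -0.0135 to 0.320 for Npr3, and for ERTU in Gαq -0.192 to 0.110 for Nppb. For the interaction it gave -0.298 to 0.0849 for Nppa, -0.101 to 0.192 for Npr1, -0.0650 to 0.587 for Npr3 and -0.330 to 0.0688 for Furin. The causes were not tested. The ranges without 1 library are not confidence intervals. With 4 or 5 hearts a group, the sign of these changes was not settled.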

Other observations

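Across the 18 libraries, the genes whose deviations from their group means were most like those of each member were listed as a description. Such lists pick the highest of 13098 genes, and all points share library and depth. For Nppa they were Pdap1 (r = 0.88), Aig1 (0.87) and Fancg (0.85), and for Nppb Tmem251 (0.83), Tnfrsf12a, the receptor of the cytokine TWEAK (0.78), and Mir17hg (0.76). For Mme they were the lipid synthesis genes Scd1 (0.81) and Fasn (0.76) and Nptxr (0.76). Corin was most like Vldlr, the very low density lipoprotein receptor (0.93), and Sgo2a (0.92). Furin was most like Foxo1 (0.93), Ints3 (0.90) and Fntb (0.89).

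Among the receptors, Npr1 was most like Sdc1 (0.92) and 5033428I22Rik (0.91), Npr2 most like Tspan18 (0.88), Slc43a2 (0.85) and Mboat7 (0.85), and Npr3 most like Gpm6a (0.94), Ndufb4c (0.90) and Dpp4 (0.88). Among the members themselves, the highest value of the same measure was that of Npr1 with Npr3 (0.58, 18 libraries).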
